A study of Homo sapiens with 16 samples.

Results

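Sorafenib given before methyl methanesulfonate (MMS) was compared with MMS alone after 24 h in MDA-MB-231, a mesenchymal-type line from a human breast cancer that lacks the oestrogen receptor. The comparison took 4 of the 16 RNA-seq libraries by their treatment labels. In 2 the cells were given 1 µM sorafenib followed by MMS for 24 h, called the combination here, and in 2 they were given MMS for 24 h. The time in sorafenib before MMS is taken as 12 h, which these labels do not give. All 23228 gene rows were used. The MMS dose is 40 µM in the sample labels and 40 µg/mL in the series description, and the sources used here do not settle which applies. The 2 libraries of a group came from independent experiments, per the series description, and their titles begin with MDA231 (replicate 1) or MDAMB231 (replicate 2). Each title start is taken below as 1 experiment, which the labels do not state. The other groups used below are sorafenib at 1 µM for 24 h without MMS, the vehicle DMSO for 24 h, the combination 8 h after MMS, and MMS for 8 h, with 2 libraries each. All groups are the same cell line in medium with serum. The labels do not state whether sorafenib stayed on during MMS. If it did, combination cells at 24 h had 36 h of sorafenib in all, against 24 h in cells on sorafenib alone. No group had 36 h of sorafenib without MMS.

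Sorafenib blocks RAF kinases and several receptor tyrosine kinases, among them the VEGF receptors. RAF kinases start the MEK-ERK cascade, which drives AP-1 and ETS factors and, through them, genes for growth factors, cytokines and proteases. It also induces its own brakes, the DUSP phosphatases and the Sprouty and SPRED proteins, so that messages of these brakes are a common readout of ERK signalling. MMS methylates DNA and other molecules in the cell and sets off repair and stress responses.

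Genes summed to 26381349 and 22878539 reads in the combination libraries and 17256324 and 23181917 in the MMS libraries. Levels are CPM, counts divided by the TMM-scaled gene total of the library, with no division by gene length, so levels are compared within a gene only. They are shares of the RNA of a whole dish, in which fewer cells with a message and less message per cell cannot be told apart. The labelled cell type was checked with markers. Of 10 genes listed for the line, 9 were above 1 CPM in all 4 libraries, among them VIM, with 1420 and 1690 CPM in the combination against 1530 and 1730 in MMS. SPARC was the exception, between 0.11 and 0.96 CPM over the 16 libraries. The oestrogen receptor gene ESR1 did not exceed 0.223 CPM in any library. Other luminal markers were expressed: 12 of 21 exceeded 1 CPM in both combination libraries and 10 in both MMS libraries. KRT8 had 189 and 206 CPM against 173 and 203. Of 15 fibroblast and endothelial markers, 5 exceeded 1 CPM in both libraries of each group. ESAM was highest, with 169 and 175 CPM against 202 and 196. Of 12 immune markers, 2 exceeded 1 CPM in both combination libraries and 1 in both MMS libraries. MS4A1 was at 0 in all libraries. CD68, which is also lysosomal, made up most of that list's sum. The sum was 93.2 and 118 CPM in the combination against 96.9 and 121 in MMS.

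A gene was called when its Benjamini-Hochberg adjusted p in edgeR was under 0.05 over the 13948 genes tested. With the 8 group means alone, 17 genes were called (0.122%). Of these, 2 were higher (0.0143%) and 15 were lower (0.108%) in the combination. With the title start as replicate block, 283 genes were called (2.03%), of which 108 were higher (0.774%) and 175 were lower (1.25%). These included all 17. The biological coefficient of variation in edgeR, a single value for all genes that leaves out counting noise, was 0.136 without the block. With the block it was 0.0632, which is what remained once the difference between the title starts was taken out. The called changes were mostly small: 16 genes rose and 42 fell by more than 1 on the log2 scale among the 283. In 237 of the 283 genes both combination libraries lay on the same side of both MMS libraries. The 283 were picked by the test on the same libraries, so this count gives them no further support. Over all genes tested the median log2 change was 0.01.

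**Figure D1:**
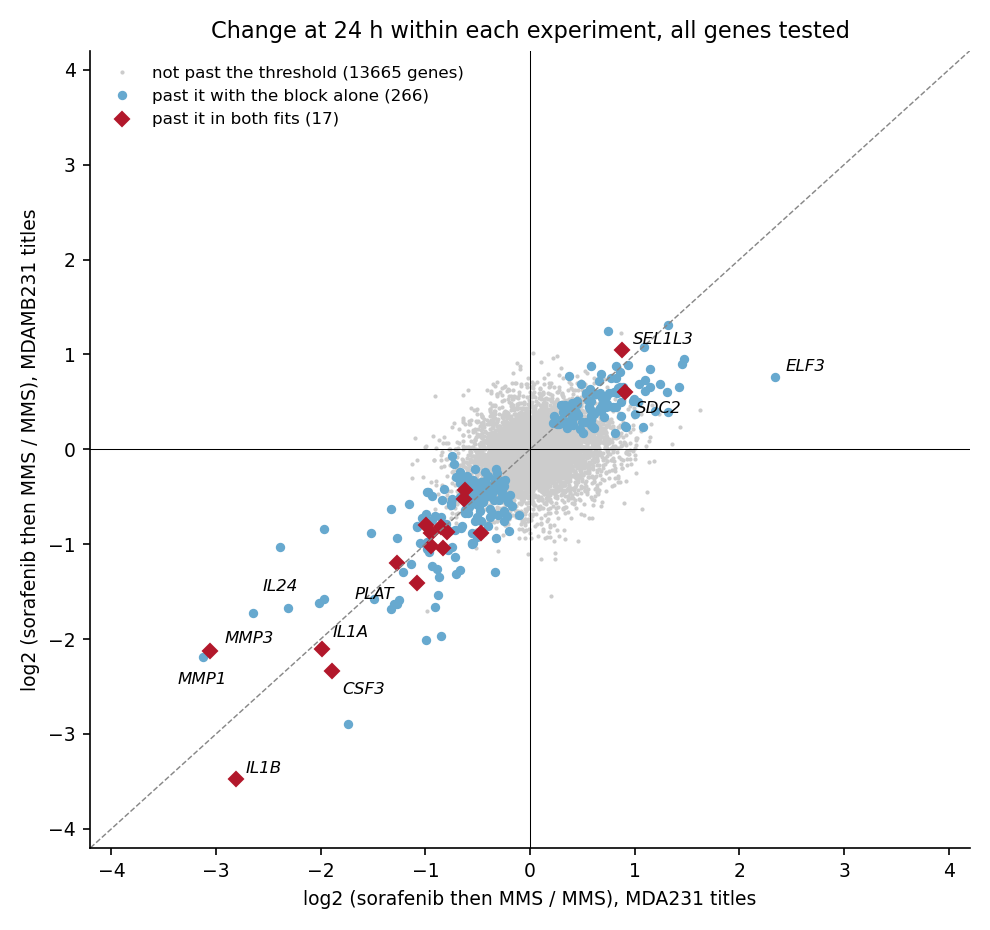
Log2 ratio of the combination to MMS at 24 h within the MDA231 titles (x axis) and within the MDAMB231 titles (y axis), computed from CPM plus 0.5, 1 point for each of the 13948 genes tested. Red diamonds are the 17 genes called in both fits, blue points the 266 called with the block alone, grey points the rest. IL1B, MMP3, MMP1, IL1A and CSF3 lie far below 0 in both experiments, and ELF3 is high mainly in the first.

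Across genes the 2 ratios had a correlation of 0.357, and 0.463 over the 7857 genes with a mean count of at least 500. These are descriptions, since genes are not replicates and the 2 ratios share TMM scaling. Without the block, leaving out any of the 4 libraries left between 3 and 6 genes called, and CSF3, DUSP4 and IL1B were called each time. With the block, 103 and 142 genes were called when the first and the second combination library were left out, and 135 and 201 when the first and the second MMS library were. Of the 283, 73 genes were called in each of these 4 fits, 58 lower and 15 higher, and they are called stable below. All 17 genes were among them.

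Feedback genes of the ERK cascade were lower in the combination. DUSP4, a phosphatase that switches off ERK in the nucleus, had 232 and 219 CPM in the combination against 449 and 444 CPM in MMS. The groups were far apart and the replicates of each close together (log2 change -0.99 ± 0.07 SE, n = 2 libraries per group, adjusted p = 9.72e-05). DUSP6, the cytoplasmic ERK phosphatase, had 105 and 104 CPM in the combination against 211 and 181 CPM in MMS. It thus stood at 53.4% of the MMS level (log2 change -0.90 ± 0.09, adjusted p = 0.00171). PHLDA1, an ERK-induced gene, had 308 and 323 CPM against 533 and 591 CPM (-0.83 ± 0.13, adjusted p = 0.0287). HBEGF, an EGF receptor ligand, had 77.3 and 82.5 CPM against 120 and 111 CPM (-0.53 ± 0.08, adjusted p = 0.0287). Neither gene's groups overlapped.

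Of the 30 measured genes of the ERK output list, 4 fell without the block and 15 fell with it, and none rose in either fit. Of all genes tested, 1.25% fell with the block. The list's median log2 change was -0.44, against 0.01 over all genes tested, and 28 of 30 members were below 0. Beyond the 4 above, stable falls with the block were found for IER3, an early survival gene (365 and 402 CPM against 628 and 841, -0.92 ± 0.08), TGFA, an EGF receptor ligand (-0.60 ± 0.09), the Sprouty inhibitor SPRY2 (-0.52 ± 0.08), the RAS inhibitor SPRED1 (-0.57 ± 0.08), the membrane protein EMP1 (-0.44 ± 0.07) and IL8. The CPM ranges of the groups overlapped for EMP1. SPRY4, DUSP5, ETV4, ETV1 and PLAUR fell with the block but lost the call without combination replicate 1, and in part without other libraries, with adjusted p up to 0.672. With the block, leaving out a library gave between 10 and 13 falls in the list, and DESeq2 with the block gave 15.

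**Figure D2:**
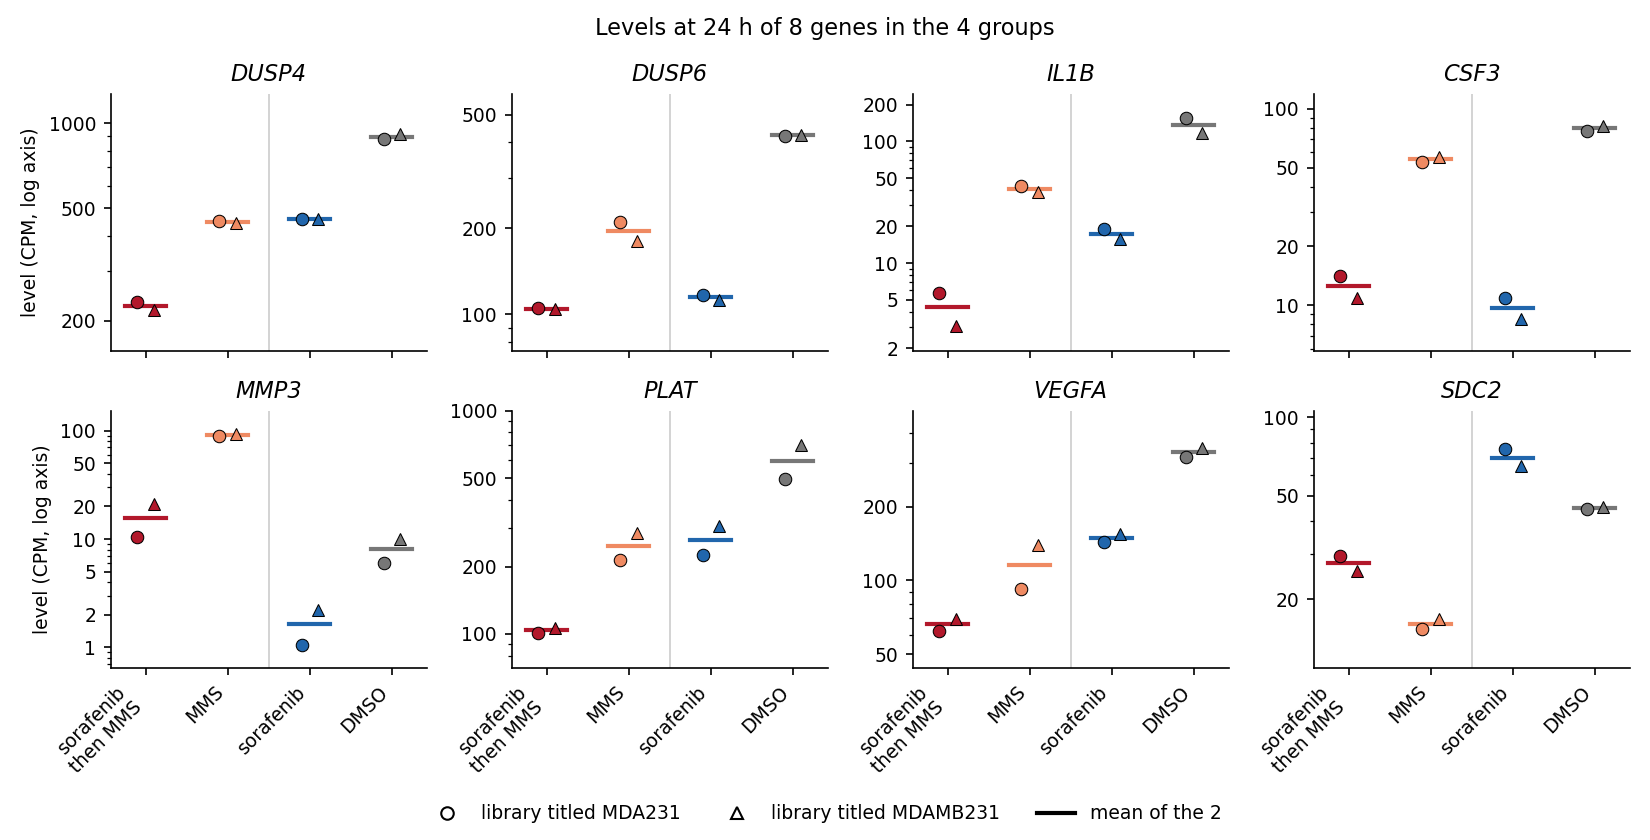
Levels at 24 h of 8 genes in the combination, MMS, sorafenib and DMSO, as CPM on a log axis that differs between panels, with n = 2 libraries per group. Circles are libraries titled MDA231, triangles those titled MDAMB231, and bars the mean of both. In each panel the combination differs from MMS in the same direction as sorafenib from DMSO.

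The negative regulator ERRFI1, which binds and inhibits EGF receptors, also fell. It had 150 and 194 CPM in the combination against 317 and 341 CPM in MMS, called with the block (-0.95 ± 0.09, adjusted p = 1.13e-06) and just missed without it (adjusted p = 0.0708). With HBEGF and TGFA it made 3 falls among 11 measured genes of the EGF family list (27.3%, against 1.25% of all genes tested). In the immediate early list, 3 of 28 measured genes (10.7%) fell with the block and none rose, with a median of -0.19. ARC, a gene induced by growth factors, fell in every fit with the block (1.90 and 2.60 CPM against 8.86 and 8.78, -1.97 ± 0.21). The phosphatase DUSP1 and the AP-1 subunit FOS lost the call without combination replicate 1, as did DUSP1 with the first MMS library left out and FOS with the second (adjusted p up to 0.0938 and 0.19). Of the cascade's own kinases, none of the 15 measured RAS, RAF, MEK and ERK genes was called in either fit, with log2 changes between -0.24 and 0.22. Of the receptor kinases the drug is known to inhibit, 4 were measured and none was called, while FLT4, PDGFRA, KIT, FLT3 and RET were under the count filter.

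Several inflammatory cytokines fell. IL1B, a pyrogenic cytokine that acts through the interleukin 1 receptor, had 5.70 and 3.02 CPM in the combination against 43.1 and 38.6 CPM in MMS, or 10.7% of the MMS level (-3.21 ± 0.29, adjusted p = 0.000539). IL1A, which acts on the same receptor, had 3.43 and 3.73 CPM against 15.1 and 17.8 CPM (-2.20 ± 0.28, adjusted p = 0.0128). CSF3, the granulocyte colony-stimulating factor, had 14.1 and 10.9 CPM against 53.6 and 57.0 CPM (-2.14 ± 0.17, adjusted p = 0.00014). In all 3 genes the gap between the groups exceeded the distance between replicates. IL11, a cytokine of the interleukin 6 family, had 93.9 and 87.8 CPM in the combination against 227 and 203 CPM in MMS (-1.24 ± 0.20, adjusted p = 0.0463).

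Over the 25 measured cytokines and chemokines, 4 fell without the block, and with it 11 fell and 1 rose. With the block 44.0% of the list fell and 4.0% rose, against 1.25% and 0.774% of all genes tested. The list's median was -0.37. IL8 (CXCL8), a neutrophil chemokine, had 254 and 189 CPM in the combination against 451 and 386 CPM in MMS. It was called with the block (-0.93 ± 0.11, adjusted p = 6.77e-05) and not without it (adjusted p = 0.29). IL24 had 2.74 and 1.68 CPM against 15.6 and 6.42 CPM and was stable with the block (-2.32 ± 0.26). The neighbouring chemokines CXCL1, CXCL2 and CXCL3, the growth factor CSF2 and the prostaglandin synthase PTGS2 fell with the block (-0.46, -1.12, -1.22, -0.38 and -1.16). Each of these 5 lost the call in at least 1 fit without a library, CXCL3 and CXCL2 narrowly (adjusted p up to 0.066) and CXCL1 with adjusted p up to 0.56. CXCL1, CXCL2 and CXCL3 are near-identical copies, and reads shared between them cannot be assigned with certainty. IL18 rose instead, with 108 and 63.7 CPM in the combination against 63.6 and 42.1 in MMS (0.68 ± 0.10, adjusted p = 0.000279 with the block). IL6, a further cytokine of this kind, had 45.9 and 34.0 CPM against 52.4 and 61.8 CPM and was not called (-0.52 ± 0.20, adjusted p = 0.859, or 0.148 with the block). Of the 26 measured NF-kB subunits and feedback genes none fell, and the adhesion molecule ICAM1 rose with the block alone (0.32 ± 0.07), a call that each left-out library removed. This 1 rise was 3.85% of the list, against 0.774% of all genes tested.

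The starts of the cytokine genes that fell were searched for the AP-1 element, since AP-1 acts downstream of ERK. The windows ran from 250 bases before to 50 after each gene start in RefSeq (GRCh38.p14). The element TGANTCA reads the same on both strands, and it was chosen after the values were seen. The search plan named no element for the cytokine list. Promoters were found for 10 of the 11 genes, and 3 held it (30.0%), against 7.71% of all 35116 promoters of the table. The first share counts genes with a match in any listed promoter, and the second counts promoters. They are unlike measures, and no enrichment is read from them. One stretch of each of the 3 genes with the element is shown, with the element in capitals. They were picked because the search found the element in them. IL1A held a further match, TGAGTCA, that is not shown. The lines give, in order, chr2:112784475-112784529 (minus strand, 12 bases before one of the 2 listed gene starts), chr4:73740408-73740462 (plus strand, 137 bases before the start) and chr19:55370529-55370583 (minus strand, 96 bases before the start).
IL1A: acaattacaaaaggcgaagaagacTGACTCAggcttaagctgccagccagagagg
IL8: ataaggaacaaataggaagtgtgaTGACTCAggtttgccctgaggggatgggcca
IL11: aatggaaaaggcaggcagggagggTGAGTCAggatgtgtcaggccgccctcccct
The ETS element CCGGAAGT, searched on both strands, was found in none of the 10, against 4.14% of all promoters. These are again unlike measures. At such a share 10 genes will often hold no match, so nothing is read from its absence. Of the 13948 genes tested, 11075 had a promoter in the table, and 7.3% of these held the AP-1 element and 9.63% the ETS element. Of the 175 genes that fell with the block, 136 had a promoter, with AP-1 in 26 and ETS in 3. Of the 108 that rose, 78 had one, with AP-1 in 7 and ETS in 3. Of the 15 ERK output genes that fell, 11 had one, with AP-1 in 3 and ETS in 0. Because too many genes of these 4 sets lack a promoter in the table, the search is void for them, and nothing is read from their shares. A match is a string of letters, and binding was not measured.

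Secreted proteases of the matrix fell next to the cytokines. MMP3, stromelysin, had 10.4 and 21.2 CPM in the combination against 90.2 and 94.2 CPM in MMS (-2.55 ± 0.39, adjusted p = 0.0287). PLAT, the tissue plasminogen activator, had 101 and 107 CPM against 214 and 284 CPM (-1.26 ± 0.20, adjusted p = 0.0288). In both genes the lowest MMS library was well above the highest combination library. MMP1, interstitial collagenase, had 221 and 514 CPM in the combination against 1937 and 2337 CPM in MMS, which is 17.2% of the MMS level. It was called with the block (-2.65 ± 0.16, adjusted p = 6.18e-09) and missed without it (adjusted p = 0.0711). Its level was higher in the MDAMB231 library of both groups. PLAU, urokinase, had 94.7 and 95.8 CPM against 155 and 238 CPM (-1.01 ± 0.10 with the block).

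Of 32 measured matrix proteases and inhibitors, 2 fell without the block, and with it 8 fell and 2 rose, around a median of -0.09. MMP10, ADAMTS6, the urokinase receptor gene PLAUR and the urokinase inhibitor SERPINB2 completed the falls. ADAMTS6 was stable (41.0 and 37.9 CPM against 92.1 and 56.9, -0.89 ± 0.14). SERPINB2 had 5.40 and 0.461 CPM against 22.7 and 1.22 CPM, so that the experiments differed more than the treatments, and its call was lost without combination replicate 1 (adjusted p = 0.108). MMP10 was scarce, at 0.256 and 0.419 CPM against 1.25 and 1.75 CPM, and lost its call without combination replicate 1 or MMS replicate 2. The rises were the inhibitor SERPINE2 (0.45 ± 0.09) and the collagen-crosslinking enzyme LOX (0.48 ± 0.10), and each left-out library removed both.

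Adhesion genes were among the lower ones. The laminin chain LAMB3 had 750 and 734 CPM in the combination against 1134 and 958 CPM in MMS (-0.49 ± 0.08 with the block) and narrowly missed without MMS replicate 1 (adjusted p = 0.0552). With the integrins ITGA2 and ITGA6 and the matrix protein TNC it was among 5 falls of 35 measured genes of the matrix and integrin list. These falls were 14.3% of the list, against 1.25% of all genes tested. The integrins lost the call without combination replicate 2, ITGA2 also without MMS replicate 2, and TNC lost it without combination replicate 1 (adjusted p up to 0.0903, 0.0567 and 0.0639). The collagen genes COL4A1 and COL5A1 rose with the block (0.39 ± 0.08 and 0.56 ± 0.13). These rises were 5.71% of the list, against 0.774% of all genes tested. COL4A1 lost the call in every fit without a library and COL5A1 without either replicate 1. The list's median was 0.01.

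Angiogenesis, which the study's title names, was represented by 29 measured ligands, receptors and regulators. Without the block none was called. With it 4 fell and 1 rose (13.8% and 3.45%, against 1.25% and 0.774% of all genes tested), and the list's median was -0.11. VEGFA, the main growth factor for blood vessels, had 62.2 and 69.8 CPM in the combination against 91.8 and 139 CPM in MMS, with the highest combination library below the lowest MMS library. It was stable with the block (-0.79 ± 0.11, adjusted p = 0.000179) and not called without it (adjusted p = 0.178). ANGPTL4, a secreted regulator of vessels and lipids, had 3.47 and 10.3 CPM against 15.5 and 32.7 CPM (-1.87 ± 0.20), and JAG1, a Notch ligand, had 81.5 and 102 CPM against 124 and 138 CPM (-0.52 ± 0.08). The VEGF co-receptor NRP1 fell by 0.28 with overlapping groups, and each left-out library removed its call. ID3, an inhibitor of helix-loop-helix factors, rose, with 23.5 and 29.1 CPM against 13.8 and 12.0 CPM (1.03 ± 0.19). It lost the call without either replicate 2 (adjusted p up to 0.135).

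The TGF-beta and mesenchymal list split, with 5 rises and 5 falls among 35 measured genes with the block (14.3% each way) and a median of 0.01. Of all genes tested, 0.774% rose and 1.25% fell with the block. The ligand TGFB2 was higher in both experiments, at 312 and 258 CPM in the combination against 213 and 180 CPM in MMS (0.54 ± 0.07, adjusted p = 0.000246 with the block). The ligand BMP4 rose as well, with 108 and 61.9 CPM against 61.0 and 36.6 CPM (0.80 ± 0.11). Both were stable. The receptors TGFBR1 and TGFBR2 and the target PMEPA1 were lower (-0.37, -0.32 and -0.67), and each lost the call without combination replicate 2 and in part without others (adjusted p up to 0.43). LTBP2 and INHBA were the other falls, and TAGLN, COL5A1 and ID3 the other rises.

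The 2 rises called without the block were single genes of different kinds. SDC2, a heparan sulphate proteoglycan of the cell surface, had 29.3 and 25.8 CPM in the combination against 15.4 and 16.8 CPM in MMS (0.77 ± 0.11, adjusted p = 0.0271). SEL1L3 had 12.8 and 15.0 CPM against 6.76 and 7.03 CPM (1.01 ± 0.16, adjusted p = 0.0288). Larger rises were called with the block alone. ELF3, an epithelial ETS factor, had 5.48 and 2.47 CPM against 0.682 and 1.26 CPM (1.89 ± 0.37, adjusted p = 0.00698), and PDE5A, the cyclic GMP phosphodiesterase, had 3.98 and 2.94 CPM against 1.14 and 1.34 CPM (1.43 ± 0.26). PLXDC2, DUSP8, the complement protease C1S, the peptide NMU and the iron-binding lipocalin LCN2 followed, with log2 changes between 1.01 and 1.29. LCN2 had 28.7 and 25.7 CPM against 10.4 and 16.1 CPM. These 7 rises lost the call without combination replicate 1 and without MMS replicate 1, and some without other libraries, with adjusted p up to 0.632. Of 18 measured luminal epithelium markers, ELF3 was the 1 called (5.56%, against 0.774% of all genes tested that rose with the block). The summed level of that list was 1020 and 984 CPM in the combination against 920 and 988 in MMS.

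Further falls called in both fits lay outside these groups. LOC647979 is NORAD by its RefSeq gene number, a long non-coding RNA that is induced by DNA damage and binds Pumilio proteins. It had 263 and 286 CPM in the combination against 506 and 529 CPM in MMS (-0.92 ± 0.13, adjusted p = 0.0221). MT2A, a metallothionein that binds zinc, had 176 and 181 CPM against 318 and 320 CPM (-0.84 ± 0.12, adjusted p = 0.0271). With MT1X (-0.65 ± 0.13 with the block) it made 2 falls of 8 measured genes of the metal list, and reads can be shared between such copies. MT1X lost the call without either replicate 1 (adjusted p up to 0.171). ZFP36L1, which binds AU-rich messages and leads to their decay, had 171 and 167 CPM against 265 and 240 CPM (-0.58 ± 0.08). MMD had 28.0 and 23.2 CPM against 39.1 and 43.2 CPM (-0.69 ± 0.10). ASB2 was called on a mean of 5.5 reads, with 0.0365 and 0 CPM against 0.454 and 0.528 CPM.

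Genes of the DNA damage and stress responses mostly were not called, like most genes tested, of which 2.03% were called with the block. At that share a list of the sizes below can hold no called gene, so nothing is read from lists without one. In 21 of 43 lists no member was called in either fit, among them base excision repair (27 measured, median -0.01), mismatch repair (11, -0.02), homologous recombination and Fanconi genes (42, 0.02), replication (46, 0.02), mitosis (45, 0.05), NRF2 targets (30, 0.06), chaperones of the endoplasmic reticulum (28, 0.07) and apoptosis genes (29, -0.02). CDKN1A, the p21 cell cycle inhibitor, had 64.1 and 136 CPM in the combination against 115 and 196 CPM in MMS (-0.68 ± 0.12 with the block), with overlapping groups and no call without combination replicate 1 (adjusted p = 0.127). With the block, MDM2 (-0.33 ± 0.07) lost its call without either combination library or MMS replicate 1, and PLK2 (0.35 ± 0.09) without any one of the 4. In the ATF4 list, 3 of 36 (8.33%) fell with the block, against 1.25% of all genes tested. They were VEGFA, DDIT4 (29.6 and 21.2 CPM against 43.7 and 39.7) and CEBPB (32.4 and 35.7 CPM against 46.2 and 52.8). DDIT4 lost the call without either replicate 2, and each left-out library removed that of CEBPB (adjusted p up to 0.256). Interferon-stimulated genes had a median of 0.18 over 42 measured, with 33 above 0. The 1 called was STAT2 (0.41 ± 0.10 with the block), or 2.38% of the list against 0.774% of all genes tested. It lost its call without either combination library and without MMS replicate 1.

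**Figure D3:**
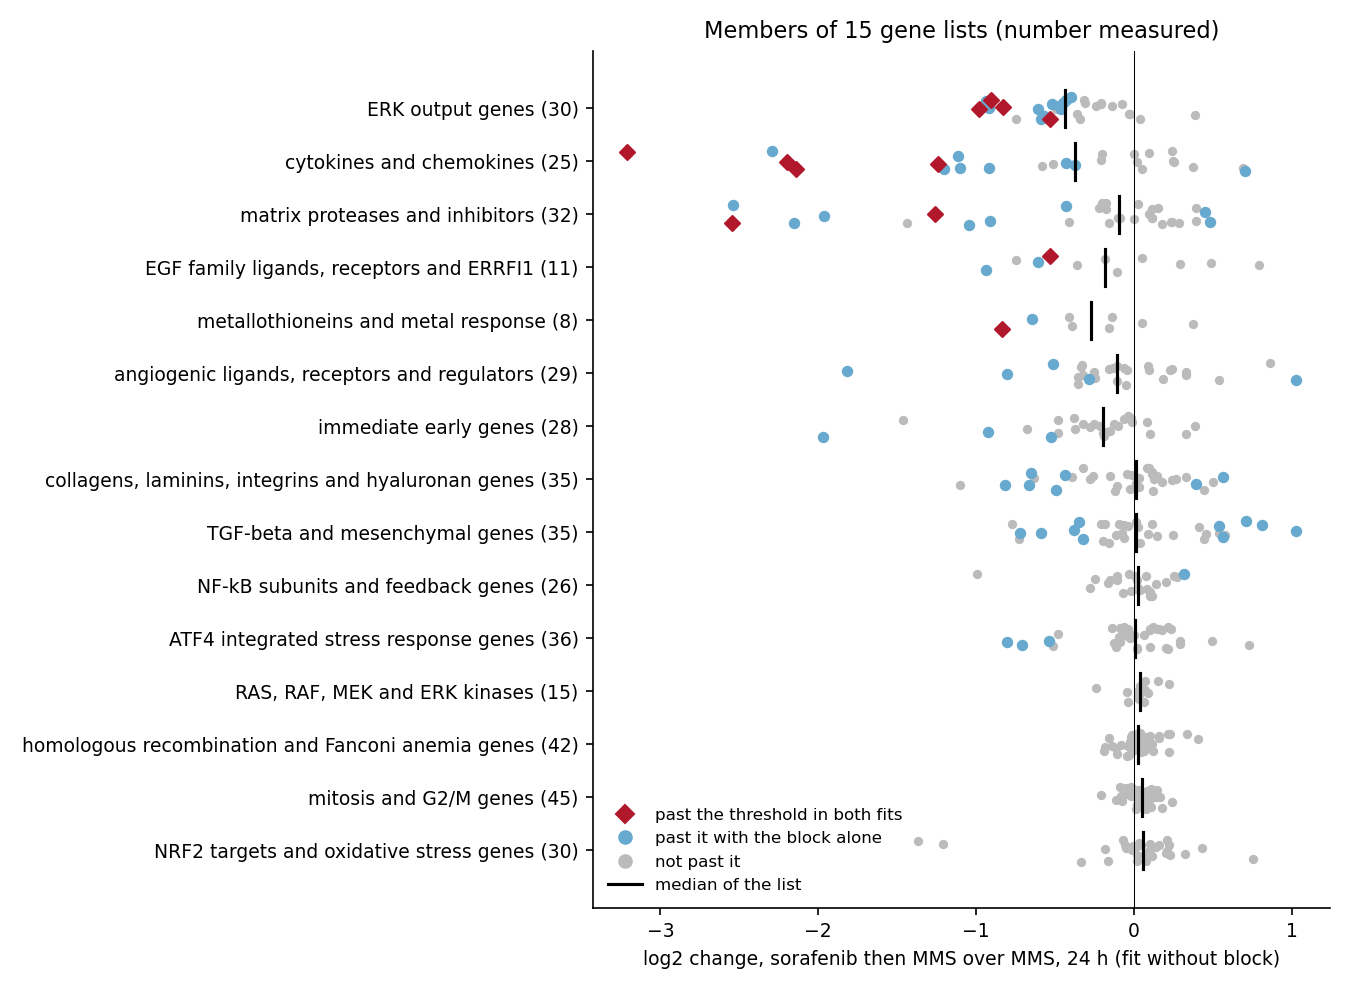
Log2 change of the combination over MMS at 24 h for the measured members of 15 gene lists, 1 point per gene, with the list's median as a black bar. Red diamonds were called in both fits, blue points with the block alone and grey points in neither. The medians of the ERK, cytokine and protease lists are -0.44, -0.37 and -0.09, and those of the 4 lists with no called member lie between 0.02 and 0.06, although single NRF2 list genes reach -1.37.

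The same 17 genes were set beside sorafenib against DMSO at 24 h, a comparison that shares no library with the present one. Both comparisons used the same fit, with its shared estimate of spread, and the same experiments. Calls found in both are therefore not independent of each other. That comparison called 470 genes higher (3.37%) and 531 lower (3.81%) with the block. All 17 had the same sign there, and 15 were called (88.2% of the 17, and 1.5% of those 1001). Of the 283, 276 had the same sign and 214 were called in the same direction (75.6% of the 283, and 21.4% of the 1001). None was called in the opposite direction. IL1B had 19.0 and 15.9 CPM in sorafenib against 156 and 118 CPM in DMSO, so that the combination was lowest of the 4 groups. DUSP4 had 460 and 457 CPM in sorafenib against 880 and 912 CPM in DMSO, and the sorafenib values were close to those of MMS. MMP3 was also lower with sorafenib alone, at 1.06 and 2.22 CPM in sorafenib against 5.97 and 10.1 CPM in DMSO. Both combination libraries were above both DMSO libraries for this gene.

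The difference between the 2 sorafenib effects was tested directly. Without the block no gene passed, with 304 genes at an unadjusted p under 0.05 and 1 call by DESeq2. Over 13948 genes tested, chance alone gives more than 304 at that cut. With the block 4 passed (0.0287%). DUSP6 fell less with MMS: the change was -0.90 ± 0.07 in MMS cells and -1.88 ± 0.07 in cells without MMS, a difference of 0.98 ± 0.10 (adjusted p = 0.000161). Its level was 117 and 113 CPM in sorafenib, close to the 105 and 104 CPM of the combination, against 421 and 425 CPM in DMSO. The difference was past the threshold in each of the 4 block fits without a library (adjusted p up to 0.00354). It was not called without the block (adjusted p = 0.103). LOC647979 was the reverse case, with 364 and 366 CPM in sorafenib against 390 and 464 CPM in DMSO, a change of -0.22 without MMS and -0.92 with it (difference -0.70 ± 0.10, adjusted p = 0.0141). Its call was lost without either combination library and without MMS replicate 1 (adjusted p up to 0.0916). The timing of sorafenib differs between the 2 effects, so that MMS and the different exposure cannot be told apart.

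**Figure D4:**
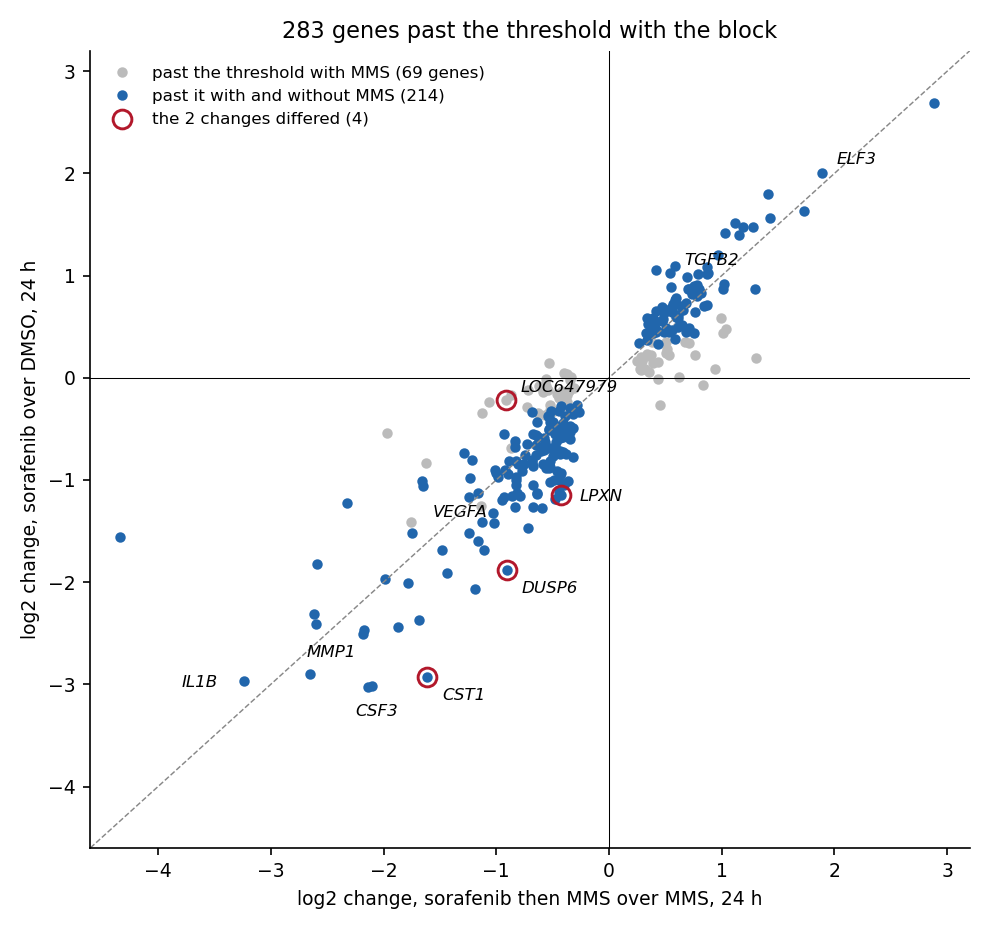
Log2 change of the combination over MMS (x axis) and of sorafenib over DMSO (y axis) at 24 h in the fit with the block, for the 283 genes called on the x axis. Blue points were called on both axes, grey points on the x axis alone, and red rings mark the 4 genes whose changes differed. Most points lie where both changes have the same sign, and DUSP6, LPXN and CST1 lie below the diagonal.

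The combination was also compared with MMS at 8 h, again with no library in common but within the same fit and experiments. More genes were called there, 575 higher (4.12%) and 751 lower (5.38%) with the block. Of the 283 genes at 24 h, 272 had the same sign at 8 h and 199 were called in the same direction (70.3% of the 283, and 15.0% of the 1326), while 1 was called in the opposite direction. Of the 17, 13 were called at 8 h (76.5%), and all had the same sign. IL1B fell with a log2 change of -3.23 ± 0.17 at 24 h and -3.41 ± 0.16 at 8 h. PLAT fell with -1.24 ± 0.10 at 24 h and -1.26 ± 0.10 at 8 h. MT2A had -0.84 ± 0.10 at 24 h and -0.19 ± 0.10 at 8 h, where it was not called (adjusted p = 0.265). VEGFA had -0.79 ± 0.11 at 24 h and -0.24 ± 0.10 at 8 h, where it was not called either (adjusted p = 0.14). In the test of the difference between the times, no gene passed in edgeR with or without the block. At an unadjusted p under 0.05 there were 773 genes without it and 1841 with it. The count of 773 is near what chance alone gives over 13948 genes, and nothing is read from either count. DESeq2 called none without the block and 42 with it. The values of MT2A and VEGFA at the 2 times are given side by side only.

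**Figure D5:**
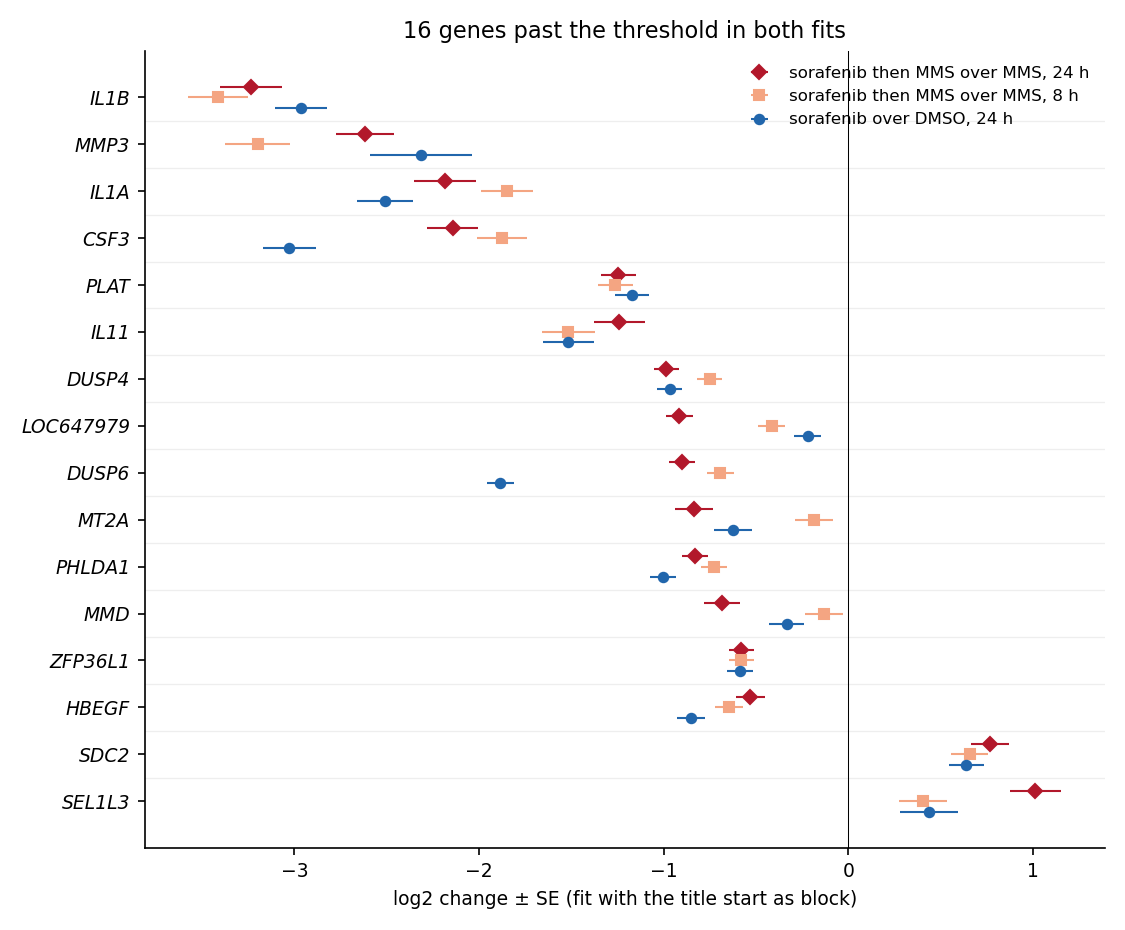
Log2 change ± SE in the fit with the block for 16 of the 17 genes called in both fits (ASB2, which had few reads, is left out). Red diamonds are the combination over MMS at 24 h, light squares the same at 8 h, and blue circles sorafenib over DMSO at 24 h, with n = 2 libraries per group. The 3 changes have the same sign in each gene.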

How the data were processed

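RNA of MDA-MB-231 cells was sequenced in 16 libraries, 2 for each of 8 groups. The deposited values are read counts per gene, which the authors made with CASAVA 1.8.2, TopHat2 2.0.8b and HTSeq on hg19, per the submitters' processing notes. The annotation and the strand setting are not given in the sources used here, so reads of overlapping antisense genes cannot be told apart. The 5 counter rows were left out, and gene totals ran from 16774156 to 26448212 reads.

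In R 4.3.3, counts were fitted with edgeR 4.0.16 (filterByExpr, TMM, quasi-likelihood F-test) to 8 group means over all 16 libraries, with Benjamini-Hochberg adjustment over 13948 genes and SE from the log2 change and F. The title start was then added as replicate block. Same-numbered libraries deviated together: over 28 pairs of groups the correlation of deviations from group means ran from 0.489 to 0.707, and the series description speaks of independent experiments. DESeq2 1.42.0, RLE factors (DESeq2-type), other filters, fewer libraries and leaving out each library were alternatives. Where 1 library of a group was left, it was assumed to vary like the others. The scripts were tested on simulated data.

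Named genes were the 10 largest rises and falls with groups apart and 50 or more reads on average, up to 5 members of each list with at least 2 called members, IL8, IL6, VEGFA, the target kinases, and genes whose effects differed. Other called list members, ASB2 and the genes of the closing observations were named after their values were seen. The comparison and the gene lists were chosen with earlier results of these data known. Each group has 2 libraries, which limits the precision of every SE. A few named genes are not reported here.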

Additional observations from a re-analysis of the deposited data

Results flagged for a closer look

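For 4 genes the sorafenib effect with MMS differed from that without MMS at 24 h in the edgeR fit with the title start as block, and none of the 4 differences was called without the block. The difference in log2 change was 0.98 for DUSP6 (adjusted p = 0.000161). It was 1.32 for CST1, a secreted cystatin whose reads can be shared with its copy CST4, with a change of -1.61 with MMS and -2.93 without (adjusted p = 0.0341). It was 0.72 for LPXN, a focal adhesion protein, with -0.43 with MMS and -1.15 without (adjusted p = 0.0145). It was -0.70 for LOC647979 (adjusted p = 0.0141). DUSP6 was called in each fit that left out 1 library. CST1 was lost without combination replicate 1 (adjusted p = 0.106), combination replicate 2 (0.404) and MMS replicate 1 (0.108), and LPXN without combination replicate 1 (0.105) and MMS replicate 2 (0.0806).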

How the results depend on the processing

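The number of genes called between the combination and MMS at 24 h depended on the fit. It was 17 as first given, 86 with DESeq2, 43 with no filter, 9 with the libraries at 24 h alone, 5 with the 4 libraries alone, and between 3 and 6 with 1 library left out. With the replicate block (paired by title start) it was 283, with DESeq2 and the block 332, and with the block on the 4 libraries alone 561. With the block it was 103 and 142 without combination replicates 1 and 2, and 135 and 201 without MMS replicates 1 and 2. For the sorafenib effect with MMS minus without it, no gene was called at first, 1 with DESeq2, 1 with no filter, 4 with the block and 25 with DESeq2 and the block. The block without combination replicates 1 and 2 gave 1 and 4, and without MMS replicates 1 and 2 it gave 3 and 5. For 24 h minus 8 h, DESeq2 with the block gave 42, and the block gave 6 without combination replicate 1 and 9 without MMS replicate 1. At 8 h the count was 87, with 366 by DESeq2, 139 with no filter, 29 with the libraries compared, 1326 with the block and 1379 with DESeq2 and the block. For sorafenib against DMSO it was 114, with 294 by DESeq2, 37 with the libraries at 24 h, 5 with those compared, 1001 with the block and 913 with DESeq2 and the block. RLE factors changed none of 103 gene calls. HSPB8 ran from -0.22 (without combination replicate 2) to 1.82 and SERPINB2 from -4.64 to 1.28 (without MMS replicate 1) without the block, and both changed sign. Neither gene was called in the fit of all 16 libraries without the block. With the block and 1 library left out, HSPB8 ran from 0.57 to 0.98 and SERPINB2 from -2.051 to -1.485, with no change of sign. The cause was not tested. With 2 libraries per group, changes within the spread between experiments were not detectable without the block.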

Other observations

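Some genes outside the lists moved in every fit with the block and its 4 fits without 1 library. They were chosen after their values were seen. SLCO4A1, an organic anion transporter, had 2.41 and 2.35 CPM in the combination against 9.20 and 20.7 CPM in MMS (log2 change -2.59 ± 0.22, edgeR adjusted p = 4.90e-07). STC1, the secreted hormone stanniocalcin, had 23.2 and 32.5 CPM against 56.6 and 102 CPM (-1.48 ± 0.11, adjusted p = 1.79e-07). TFPI2, an inhibitor of serine proteases in the matrix, had 92.9 and 135 CPM against 182 and 287 CPM (-1.03 ± 0.07, adjusted p = 5.54e-08). In these 3 genes both combination libraries were below both MMS libraries.

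Secreted and membrane proteins were also among the rises. IGFBP3, which binds insulin-like growth factors, had 133 and 197 CPM in the combination against 94.7 and 123 CPM in MMS (0.59 ± 0.08, adjusted p = 0.000189). The matrix protein EFEMP1 had 112 and 78.6 CPM against 69.5 and 59.3 CPM (0.55 ± 0.08, adjusted p = 0.000242). SDPR, a caveolar protein, had 29.2 and 19.8 CPM against 15.8 and 11.1 CPM (0.87 ± 0.10, adjusted p = 3.78e-05). All 3 had the same sign of change in sorafenib against DMSO.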
